A study of Mus musculus with 54 samples.

Results

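Megakaryocytes are the large marrow cells that shed platelets, and in mice they also live in the red pulp of the spleen, where platelets are stored. The 9 genes described here encode products that are largely restricted to these cells and to the platelets they release. Pf4 and Ppbp encode chemokines kept in platelet alpha granules. Gp9, Itga2b, Itgb3, Gp6, Clec1b and Treml1 encode surface receptors or their subunits, and Tubb1 encodes the beta-1 tubulin of the platelet's marginal microtubule band. Some are also known from other mouse cells, among them Pf4 from tissue macrophages, Clec1b from Kupffer cells of the liver, Itga2b from blood progenitors and Itgb3 from endothelial cells and osteoclasts.

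The genes were chosen by symbol, with earlier results of these data known. Their probe sets were found through the platform annotation of the arrays. Of the 9 genes, 8 had 1 probe set each, out of 18759 genes with a named probe set. Gp6, which encodes the platelet collagen receptor, had no probe set named for it in the annotation used and is not analysed here. The samples were 54 arrays of total RNA from C57BL6 mice aged 14 weeks. Swim mice began at 11 to 12 weeks with 9 days of acclimation in daily sessions lengthened by 10 min, followed by 3 weeks of swimming with 2 sessions a day of 90 min and 4 h of rest between them. Control mice were of the same strain and age, and whether they were handled or placed in water is not stated. Spleen, visceral fat, subcutaneous fat, kidney and brain had 4 swim and 4 control arrays each, liver had 4 swim and 3 control arrays, and muscle had 3 swim and 4 control arrays. The labels do not say that each array was a separate mouse, or whether the tissues came from the same mice, so p-values measure the spread between arrays, which may be partly technical.

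The promoter sequences of 3 measured members are shown because they are the ones that hold the letters GATAA, the core that GATA factors such as the megakaryocyte and erythroid regulator GATA1 bind. The sequences are RefSeq windows on GRCm38.p6 from 250 bases before to 50 bases after the start site that the promoter table uses, which for Gp9 and Gp6 lies inside the annotated span of the gene and not at its outer end. Capitals mark GATAA on either strand (TTATC when read on the other strand) and, in Gp9, ACCACA, the reverse complement of the RUNX core TGTGGT.
Pf4 (chr5:90772185-90772484, plus strand): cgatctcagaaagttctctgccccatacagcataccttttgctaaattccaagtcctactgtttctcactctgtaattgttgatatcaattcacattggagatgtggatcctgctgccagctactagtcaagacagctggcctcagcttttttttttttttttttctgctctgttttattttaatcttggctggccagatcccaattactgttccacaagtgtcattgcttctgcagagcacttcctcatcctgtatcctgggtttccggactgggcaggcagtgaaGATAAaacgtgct
Gp9 (chr6:87777820-87778119, plus strand): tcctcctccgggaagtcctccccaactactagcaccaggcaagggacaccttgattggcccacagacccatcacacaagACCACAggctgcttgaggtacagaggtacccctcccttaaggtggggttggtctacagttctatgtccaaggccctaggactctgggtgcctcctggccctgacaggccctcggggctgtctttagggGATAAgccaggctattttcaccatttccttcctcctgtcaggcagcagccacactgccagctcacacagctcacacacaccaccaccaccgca
Clec1b (chr6:129397047-129397346, plus strand): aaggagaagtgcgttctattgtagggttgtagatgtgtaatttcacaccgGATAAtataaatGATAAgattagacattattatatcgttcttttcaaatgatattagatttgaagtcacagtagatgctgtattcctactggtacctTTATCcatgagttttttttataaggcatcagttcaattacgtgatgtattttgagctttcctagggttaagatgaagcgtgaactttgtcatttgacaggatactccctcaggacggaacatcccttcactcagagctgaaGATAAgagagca

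The Clec1b window held 4 GATAA matches, and the Pf4 and Gp9 windows held 1 each, the Gp9 match lying at position -43 from the start. The promoter table had entries for 8 members, including Gp6 and without Itgb3, and GATAA lay in 4 of these 8 windows on either strand, the Gp6 window being the fourth. Of all 32851 promoter windows of the same length in the table, 25.4% held it. TGTGGT lay in 1 of the 8 windows, against 16.8% of all windows. The ETS core CGGAAG and the NF-E2 core TGAGTCA were found in 0 of 8, and in 16.9% and 5.2% of all windows. These are matches of letters, and the 4 motifs do not overlap one another in the windows shown.

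Spleen was checked by B cell genes, since the white pulp is rich in B cells. Cd79a, part of the B cell receptor complex, lay between 10.89 and 11.17 on all 8 spleen arrays on the log2 scale, and Ms4a1, which encodes CD20, between 11.37 and 11.75. Arrays did not all hold the labelled tissue alone. Alb, the liver's albumin gene, which averaged 13.40 in liver, reached 9.64, 5.67, 9.98 and 6.18 in swim spleens (replicates 29, 30, 31 and 32), against 4.97, 12.11, 9.77 and 4.61 in control spleens (replicates 25, 26, 27 and 28). Alb was thus above 9 on 2 arrays of each group. Ctrb1, a gene of the pancreas chosen after its values were seen, ranged from 6.43 to 9.16 in swim spleens and from 7.12 to 10.30 in control spleens. As deposited, the 75th percentile of signal was 250.1 to 293.0 intensity units on swim spleen arrays and 307.0 to 399.7 on control spleen arrays, without overlap. The arrays were normalized to each other before the tests, a choice taken over from an earlier account of these data.

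Platelet genes were lower in the spleens of swim mice. By limma with Benjamini-Hochberg adjustment over all 11356 genes tested, 7 of the 8 measured members passed the threshold of 0.05 and were lower, while 6.97% of all genes tested were called lower. The median log2 fold change of the 8 members, all of which passed the filter on low signal, was -0.77, beside 0.0039 for all genes tested. Every swim array lay below every control array for 7 members, while 11% of all genes tested had that pattern. The exception was Treml1. Because the members were chosen with earlier results of these data known, these counts and shares describe them and are not an independent test. In bulk tissue fewer cells of a type and less RNA per cell cannot be told apart. Levels below are log2 values of signal plus 16 intensity units after normalization within spleen, so folds of weakly expressed genes are understated.

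The alpha granule chemokines were among the genes that fell most. Pf4, platelet factor 4, which binds heparin, stood at 8.65, 8.47, 8.19 and 8.50 in the swim spleens (replicates 29, 30, 31 and 32), against 9.69, 9.22, 9.55 and 9.80 in the control spleens (replicates 25, 26, 27 and 28). Its log2 fold change was -1.11 ± 0.13 (SE, limma adjusted p = 0.00578), which left 46.3% of the control level. The highest swim array was below the lowest control array, replicate 26, by more than the whole range of the swim arrays.

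Ppbp, whose product is cut into the neutrophil-attracting chemokine CXCL7, read 10.72, 10.45, 10.09 and 10.42 in swim spleens, against 11.36, 10.94, 11.47 and 11.38 in control spleens. Its log2 fold change was -0.87 ± 0.15 (SE, limma adjusted p = 0.011). The groups were closest here at swim replicate 29 and control replicate 26. Pf4 and Ppbp are neighbours on chromosome 5, and among the 11356 genes Pf4 had the 41st and Ppbp the 100th lowest fold change.

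Gp9 had the lowest fold change of the members and the 30th lowest of all genes. It encodes a subunit of the GPIb-IX-V complex, with which platelets hold on to von Willebrand factor. Its levels were 8.86, 8.61, 8.17 and 8.51 in swim spleens, against 9.85, 9.46, 9.83 and 9.91 in control spleens. The log2 fold change was -1.22 ± 0.15 (SE, limma adjusted p = 0.00591), or 42.8% of the control level.

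The subunits of the fibrinogen receptor, integrin alpha-IIb beta-3, fell by similar amounts. Itga2b, the alpha-IIb chain, read 6.97, 7.06, 6.97 and 7.25 in swim spleens, against 7.74, 7.34, 7.75 and 8.08 in control spleens. Itgb3, the beta-3 chain, read 8.64, 8.54, 8.48 and 8.59 in swim spleens, against 9.43, 8.78, 9.20 and 9.35 in control spleens. Log2 fold changes were -0.66 ± 0.14 for Itga2b (SE, limma adjusted p = 0.0198) and -0.63 ± 0.13 for Itgb3 (adjusted p = 0.0179). In both genes the gap between the lowest control array, replicate 26, and the highest swim array was smaller than the range of the swim arrays. Itga2b did not pass when control replicate 25, control replicate 27 or swim replicate 31 was left out, and Itgb3 did not pass without control replicate 25, with adjusted p up to 0.0567 and 0.0502.

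Clec1b, the receptor for podoplanin that lets platelets keep blood and lymph vessels apart during development, fell least among the 7. It read 8.01, 7.91, 7.65 and 7.56 in swim spleens, against 8.38, 8.07, 8.16 and 8.47 in control spleens. The log2 fold change was -0.49 ± 0.12 (SE, limma adjusted p = 0.032). This call was lost in 5 of 8 fits that left out 1 array (control replicates 25, 27 and 28, swim replicates 31 and 32), where the adjusted p reached 0.0841.

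Treml1, a receptor of alpha granule membranes that stabilizes thrombi, did not follow the others. It read 7.14, 7.17, 7.48 and 7.33 in swim spleens, against 7.41, 7.19, 7.33 and 6.87 in control spleens. The groups overlapped and the log2 fold change of 0.08 ± 0.12 did not pass (SE, limma adjusted p = 0.677), with a 95% interval of -0.20 to 0.36. Its sign turned to -0.19 with values as deposited and to -0.0020 with arrays centred on their medians. Its level in spleen was also close to its level in the other tissues, as described below.

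The tubulin gene Tubb1 fell by about as much as the chemokines. It read 10.57, 10.39, 9.96 and 10.49 in swim spleens, against 11.44, 10.82, 11.51 and 11.53 in control spleens. The log2 fold change was -0.97 ± 0.18 (SE, limma adjusted p = 0.0148), or 51.0% of the control level.

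**Figure D1:**
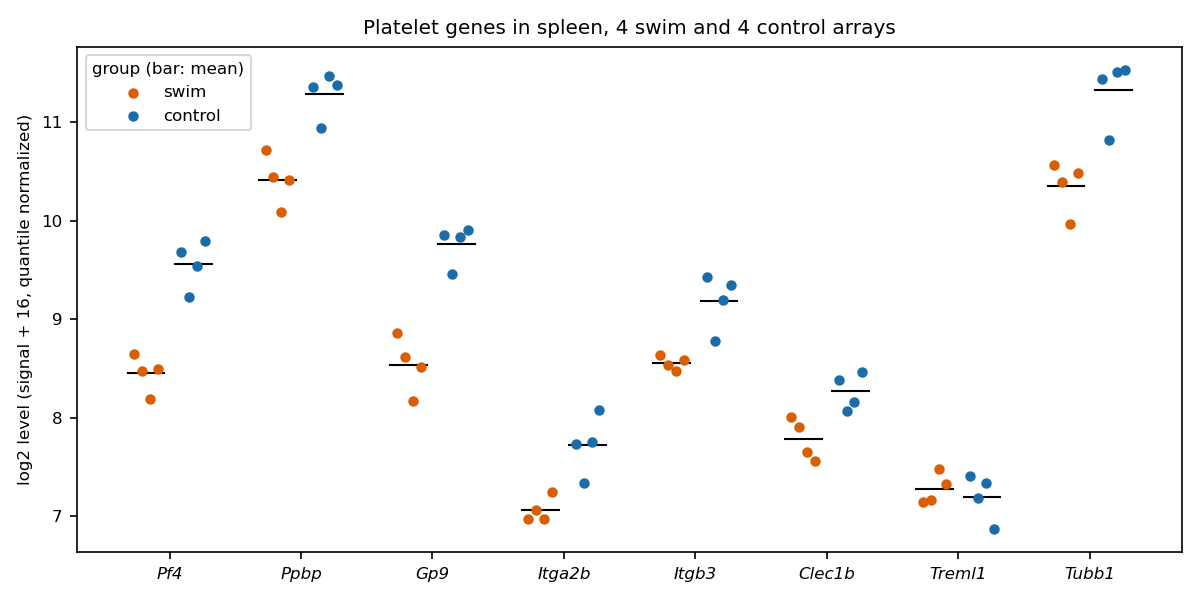
Log2 level of the 8 measured platelet genes on each spleen array, swim (orange, left) and control (blue, right), with points in order of replicate number and a bar at the mean of 4 arrays. Swim and control arrays do not overlap for 7 genes and overlap for Treml1, and the lowest control point is replicate 26 in 7 genes.

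The arrays of a group differed in the same way for most members. Control replicate 26 was the lowest control array for 7 of 8 members, and swim replicate 31 was the lowest swim array for 6, while swim replicate 29 was the highest for 6. With each group's mean subtracted, the 8 spleen arrays gave a correlation with the mean of the other members of 0.96 for Pf4, 0.95 for Tubb1, 0.90 for Ppbp, 0.89 for Itgb3, 0.88 for Gp9, 0.63 for Itga2b, 0.62 for Clec1b and -0.42 for Treml1, values that share the same arrays and their scaling. Control replicate 26 was also the array with the highest Alb. Without it, 7 members were still called lower, with a median log2 fold change of -0.89, as were 452 of all 11335 genes tested. With the Alb level of each array as a covariate, chosen after the data were seen, 7 members were again called lower and Pf4 had -1.11 ± 0.10 (limma adjusted p = 0.00563). In that fit 634 of all 11356 genes tested were called lower.

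Leaving out all 4 spleen arrays with Alb above 9, also chosen after the data were seen, kept 2 swim and 2 control arrays. The log2 fold changes were then -1.26 for Pf4, -0.96 for Ppbp, -1.32 for Gp9, -1.07 for Tubb1, -0.83 for Itgb3, -0.76 for Itga2b and -0.70 for Clec1b, each farther from 0 than with 8 arrays. In that limma fit 0 of 11314 genes and 0 members passed the adjusted threshold, with limma adjusted p of 0.0792 for Pf4 and Gp9, while 1778 genes and 7 members had an unadjusted p under 0.05.

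Pf4, Ppbp, Gp9 and Tubb1 were called in all 8 fits that left out 1 array. With values as deposited, where 66 genes were called higher and 5061 lower (1.29% higher, against 50.2% in the normalized values) and the median of all genes was -0.27, the same count of 7 members was called lower with a median of -1.06. With arrays centred on their medians, 281 genes were called higher and 1350 lower (17.2% higher), and 7 members were called lower.

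Other genes of the platelet lineage were read from 4 lists of 73 genes, of which 68 had a probe set and 66 passed the filter. Of these 66, 28 were called lower and 2 higher in swim spleens, with a median log2 fold change of -0.32, and 36 did not pass. Among all 11356 genes tested 6.97% were called lower, and 799 genes were called higher. The lists were chosen with earlier results of these data known, so the counts are a description. Leaving out control replicate 25 gave 15 genes called lower, with 282 of all 11338 genes tested lower. Leaving out control replicate 27 gave 18, with 378 of all 11333 lower. Values as deposited gave 51, with 5061 of all 11365 lower, and 1 fit of all 54 arrays gave 7 of 48, with 285 of all 11706 lower. Without the 4 arrays of high Alb limma called 0, with 34 at an unadjusted p under 0.05 and a median of -0.41. In that limma fit 1778 of all 11314 genes tested had an unadjusted p under 0.05. The plot of gene lists in spleen shows them by list. Numbers beside gene names below are log2 differences, swim minus control, from the same fit.

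Among 13 other adhesion and agonist receptors, 6 were lower and 1 was higher, with a median of -0.35. Gp5, a further subunit of the von Willebrand factor receptor, fell by 0.53 ± 0.08, and the thrombin receptor F2rl2 fell by 1.14 ± 0.18 (SE, limma adjusted p = 0.00866 and 0.00946). The ADP receptor P2ry1 fell by 0.59 and the prostacyclin receptor Ptgir by 0.51. Cd226, an adhesion receptor also found on T cells and natural killer cells and named after its value was seen, was the one that rose, by 0.30.

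Of the 4 lists, granule contents and granule assembly had the largest share called lower, with 10 of 17 genes lower and a median of -0.54. Coagulation factor F5 fell by 0.87 ± 0.08 (SE, limma adjusted p = 0.00284), the smallest p among the platelet genes. P-selectin, Selp, fell by 1.09, the factor V binding protein Mmrn1 by 0.96 and the matrix protein Sparc by 0.54. Selp, Mmrn1 and Sparc are also known from endothelial cells. F5 was high in liver, with means of 11.94 in swim and 11.89 in control mice. Alb was above 9 on 2 spleen arrays of each group, and a part of liver RNA in the F5 values was not tested.

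Signalling and cytoskeleton genes were lower in 10 of 25 cases and higher in 1, with a median of -0.29. Kindlin-3, Fermt3, which activates integrins, fell by 0.56 ± 0.07 (SE, limma adjusted p = 0.00653). Fermt3 was not confined to spleen, with a mean of 9.06 in control subcutaneous fat, whose arrays had the mixed content described below. The G protein subunit Gng11 fell by 0.56 and Rgs18, a brake on G protein signalling in platelets, by 0.47. Lat, an adaptor used by platelets and T cells, rose by 0.48. With values as deposited the rises of Cd226 and Lat were not called.

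Of 11 transcription factors of megakaryocytes, 2 were called lower, with a median of -0.23. The GATA1 cofactor Zfpm1 had a log2 fold change of -0.65 ± 0.16 and the repressor Gfi1b had -1.21 ± 0.34 (SE, limma adjusted p = 0.0332 and 0.0447). Gata1 itself, at -1.12, and Meis1, at 0.24, did not pass (adjusted p = 0.0547 and 0.0543). Zfpm1, Gfi1b and Gata1 also act in erythroid cells. This count depended on scaling, with 10 of 11 lower for values as deposited and 6 for arrays centred on their medians. Of all 11365 genes tested, 5061 were lower for values as deposited and 1350 for arrays centred on their medians.

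**Figure D2:**
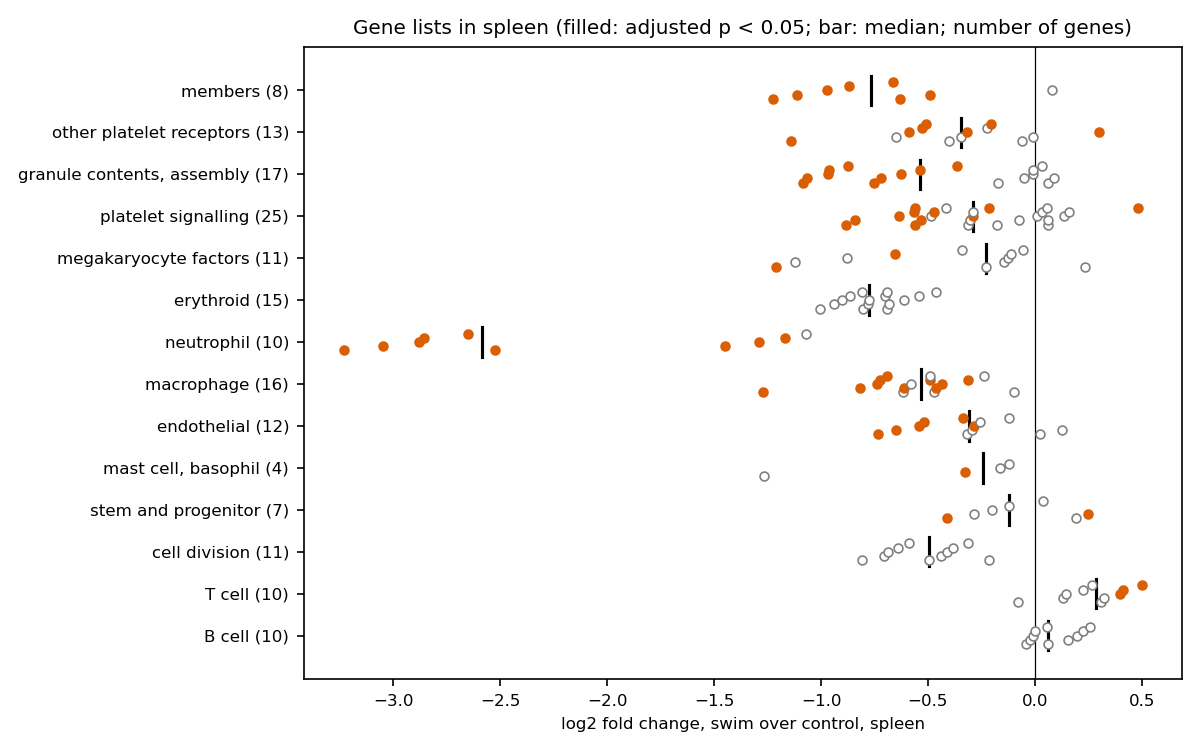
Log2 fold change of swim over control in spleen for each gene of each list that passed the filter, with filled points for limma adjusted p under 0.05 and a bar at the list median. Points for 7 members and 10 of 17 granule genes lie to the left of 0 and are filled, the neutrophil genes lie farthest left, and the erythroid genes lie left of 0 with open points only.

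Markers of other blood and stromal cells moved in the same spleens, and their part in the members' changes was not tested. These lists too were chosen with earlier results of these data known. Summed signal is given here as the range over arrays in intensity units after normalization. The 8 members summed to 3533 to 4998 in swim spleens, against 6100 to 8869 in control spleens.

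Neutrophil genes fell most, with 9 of 10 lower and a median of -2.59. Their granule proteins Lcn2, Ltf, Elane and Camp had log2 fold changes of -3.23, -2.53, -1.45 and -1.29. Their list summed to 801.0 to 1347 in swim spleens, against 3849 to 8531 in control spleens.

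Of 16 macrophage genes, 10 were lower, with a median of -0.53, including Adgre1, which encodes F4/80, at -0.61, Marco at -0.73, C1qa at -0.74 and Siglec1 at -0.49. Their sum was 7117 to 11538 in swim spleens, against 12122 to 14035 in control spleens. Of 12 endothelial genes, 6 were lower, with a median of -0.31, including Plvap at -0.73, Robo4 at -0.65, Flt4 at -0.52 and Cdh5 at -0.34. Their sum was 3001 to 3457 in swim spleens, against 3663 to 4134 in control spleens. With values as deposited, 16 of 16 macrophage and 10 of 12 endothelial genes were called lower, as were 5061 of all 11365 genes tested.

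Erythroid genes, expressed in the precursors that share the red pulp with megakaryocytes, had a median of -0.78, close to that of the members, but with a larger spread between arrays. By limma 0 of 15 passed the adjusted threshold and 8 had an unadjusted p under 0.05, among them Tspo2 at -0.90, Slc4a1 at -0.78, Epor at -0.69 and Alas2 at -0.54. Of all 11356 genes tested in spleen, 3861 had an unadjusted p under 0.05 by limma. With values as deposited 15 of 15 were called lower, as were 5061 of all 11365 genes tested. The mean log2 level of the 15 genes was 9.86, 10.42, 8.70 and 9.00 in swim spleens (replicates 29, 30, 31 and 32), against 10.25, 10.50, 10.23 and 10.02 in control spleens (replicates 25, 26, 27 and 28). The mean of the 8 members was 8.70, 8.58, 8.37 and 8.58 in the same swim spleens, against 9.41, 8.98, 9.35 and 9.42 in the control spleens. Swim replicate 30 therefore lay within the control range for the erythroid genes and below it for the members. Control replicate 26 was the highest control array for the erythroid genes and the lowest for the members.

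Of 11 cell division genes, 0 passed by limma and 7 had an unadjusted p under 0.05, with a median of -0.49 and values of -0.41 for Tk1 and -0.81 for Plk1. Of all 11356 genes tested in spleen, limma called 799 higher and 792 lower, and 3861 had an unadjusted p under 0.05. These counts are the background for the other lists of this paragraph as well. With values as deposited 11 of 11 cell division genes were called lower, as were 5061 of all 11365 genes tested. B cell genes had 0 of 10 past the adjusted threshold by limma and 4 at an unadjusted p under 0.05, with a median of 0.059 that became -0.24 with values as deposited, where 2 were called lower, and -0.056 with arrays centred on their medians. Of 10 T cell genes, 3 were higher (Cd3g, Cd3d and Cd8b1, at 0.41, 0.50 and 0.40), with a list median of 0.29 that became -0.03 with values as deposited, where 1 was called lower and these 3 rises were not called. Among 4 mast cell and basophil genes Gata2 was lower, at -0.33, and among 7 stem and progenitor genes Myb was lower, at -0.41, and Flt3 higher, at 0.25. Of 3 organ markers past the filter in spleen, 0 passed by limma and 1, the muscle gene Ckm at 0.33, had an unadjusted p under 0.05, with Alb at 0.0018 ± 1.76 (SE).

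**Figure D3:**
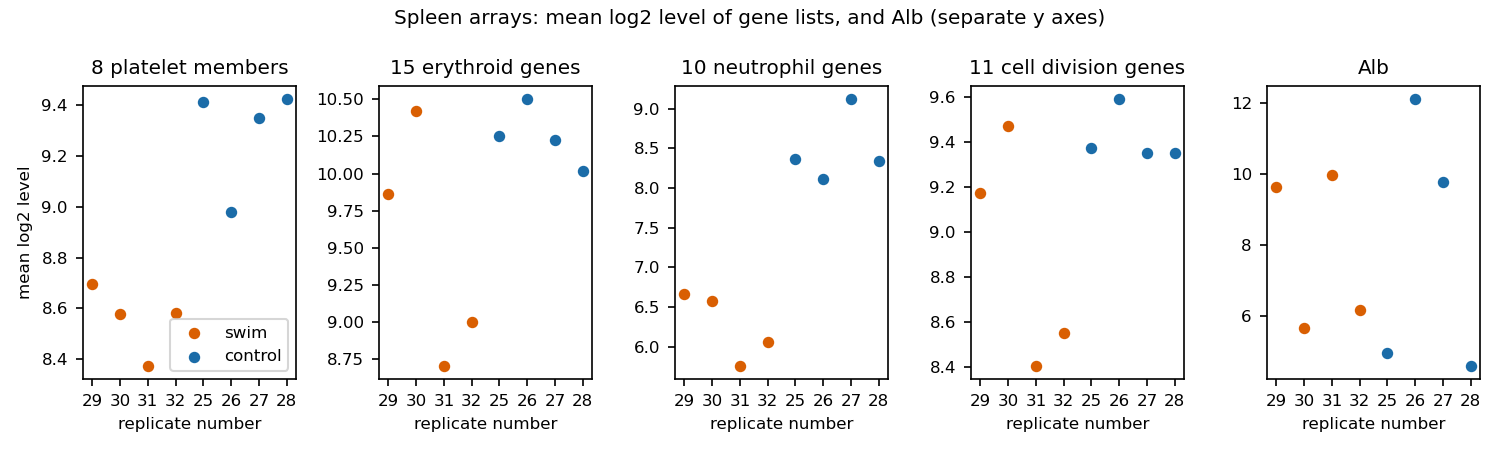
Mean log2 level of the 8 members, 15 erythroid, 10 neutrophil and 11 cell division genes, and level of Alb, on each spleen array by replicate number, swim (orange, left) and control (blue, right), each panel with its own y axis. The members and the neutrophil genes separate the groups, the erythroid and cell division genes are lowest on swim replicates 31 and 32, and Alb is high on arrays of both groups.

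The members were also ordered by level across tissues, as a description without a test. In control mice 7 of the 8 members had their highest mean in spleen, on each of 3 scalings. Levels and folds given here are from arrays normalized within each tissue, and the gaps between tissues changed with the scaling. Tubb1 averaged 11.33 ± 0.34 in spleen and 7.24 ± 0.17 in subcutaneous fat (SD, n = 4 each), the tissue that came next, a difference of 4.09 log2 units. With all arrays normalized together and with values as deposited, visceral fat came next for Tubb1, 4.32 and 4.26 log2 units below spleen. Ppbp, at 11.29 ± 0.23, was 12.1-fold above visceral fat, at 7.69 ± 0.14, and Gp9, at 9.76 ± 0.20, was 10.8-fold above visceral fat, at 6.34 ± 0.20 (SD, n = 4 each). Itgb3 averaged 9.19 ± 0.29 in spleen and 7.36 ± 0.19 in subcutaneous fat. For these 4 genes no control spleen array overlapped the next tissue.

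Beyond spleen, neighbours in the order mostly overlapped. For Gp9 the 5 tissues below visceral fat, from 5.77 in kidney to 5.39 in muscle, overlapped with their neighbours, and the same held for Ppbp from kidney, at 6.79, to muscle, at 5.67. Tubb1 lay between 7.24 in subcutaneous fat and 6.24 in muscle. Itga2b, at 7.73 ± 0.30 in spleen and 6.71 ± 0.59 in subcutaneous fat (SD, n = 4 each), overlapped between these tissues, and its lowest mean was 5.38 in muscle.

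Pf4 and Clec1b had high levels outside spleen. Pf4 averaged 9.56 ± 0.25 in control spleen and 9.05 ± 0.45 in control visceral fat (SD, n = 4 each), with overlapping arrays, and was next in subcutaneous fat at 7.41 and muscle at 7.25. The Pf4 gap between control spleen and visceral fat was 0.51 on this scale and 0.83 with all arrays normalized together. In swim mice the order of spleen and visceral fat was the opposite, with Pf4 at 8.45 ± 0.19 in spleen and 8.92 ± 0.26 in visceral fat. Clec1b averaged 8.27 ± 0.19 in control spleen (n = 4) and 8.50 ± 0.29 in control liver (SD, n = 3), overlapping, and the tissue that came next was subcutaneous fat at 6.04. Treml1 varied least, from 7.20 in spleen to 6.34 in visceral fat, with each tissue overlapping its neighbour.

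Levels in subcutaneous fat rest on arrays of mixed content. Cd79a, at 4.21 to 5.61 in visceral fat, read 5.19, 8.60, 9.87 and 4.43 in swim subcutaneous fat (replicates 21, 22, 23 and 24), against 4.95, 11.14, 11.26 and 11.13 in control subcutaneous fat (replicates 17, 18, 19 and 20). Swim replicate 22 also had Umod, a kidney gene, at 15.24, against 15.31 in kidney, and swim replicate 23 had Ckm at 11.51. Clec1b was 5.18 on control replicate 17, against 6.17 to 6.48 on the other control arrays, and Itga2b was 6.10, against 6.38 to 7.41. Pf4, the other way, was 8.65 on control replicate 17 and 6.79 to 7.12 on the other control arrays.

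**Figure D4:**
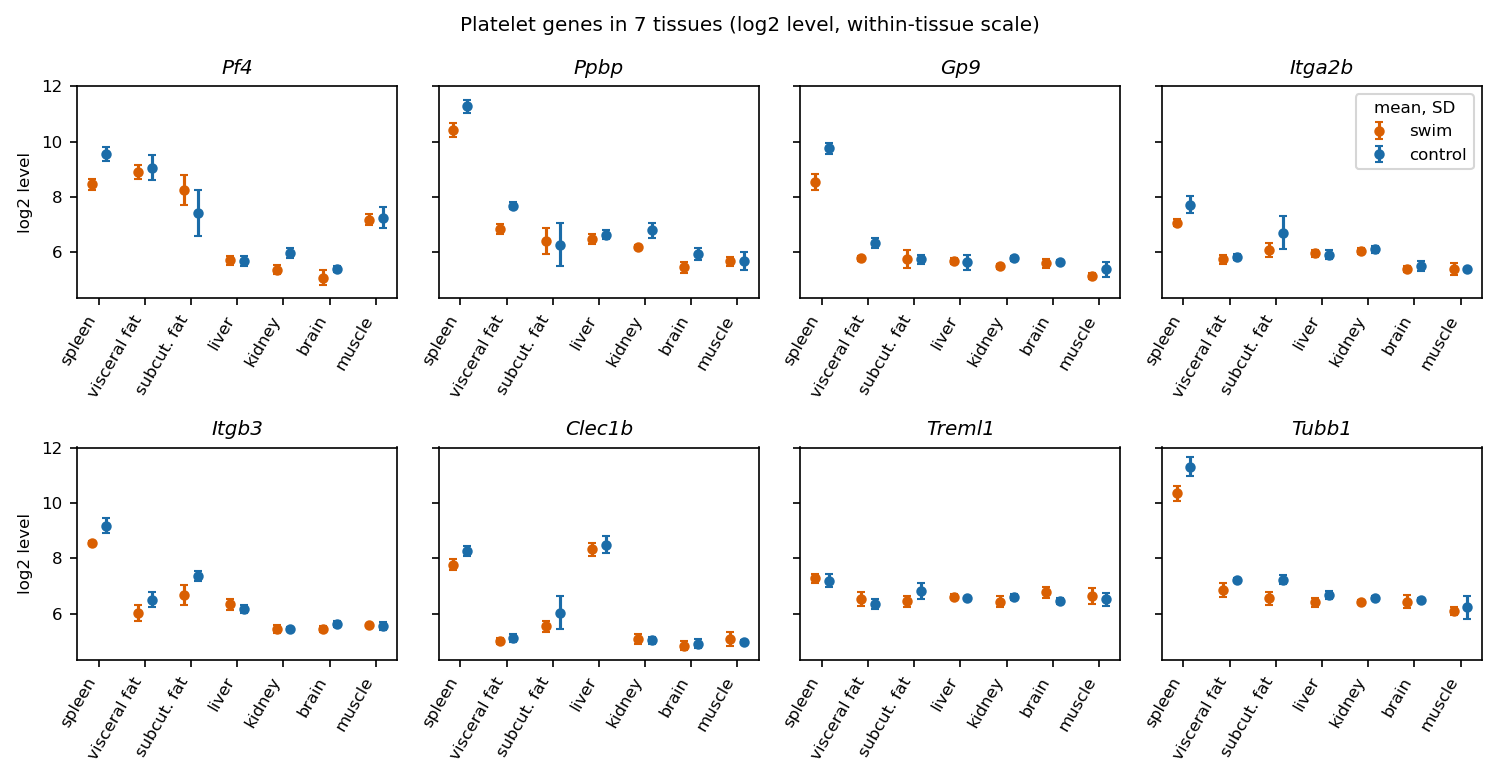
Mean log2 level, with SD as bars, of each platelet gene in swim (orange, left) and control (blue, right) arrays of 7 tissues, with 3 or 4 arrays a group and values normalized within each tissue. Spleen has the highest control mean for 7 genes, Clec1b is as high in liver, and Pf4 is nearly as high in visceral fat.

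Outside spleen, members passed the test in visceral fat and kidney. In visceral fat 7 of 8 members passed the filter on low signal and 3 were called lower, while 12.1% of all genes tested were called lower. Ppbp read 6.88, 6.92, 6.56 and 6.97 in swim visceral fat, against 7.51, 7.69, 7.85 and 7.71 in control visceral fat, without overlap. Its log2 fold change was -0.86 ± 0.11 (SE, limma adjusted p = 0.00116), close to that in spleen. Gp9 was lower by 0.56 ± 0.10, with arrays at 5.67 to 5.85 in swim mice, against 6.18 to 6.60 in control mice (limma adjusted p = 0.00532). Tubb1, at -0.36 ± 0.12 with overlapping arrays, passed narrowly (adjusted p = 0.0495) and was lost in 7 of 8 fits without 1 array. Pf4 had -0.14 ± 0.21 and did not pass (adjusted p = 0.672). Macrophage genes in visceral fat were called higher in 4 of 13 cases, with a sum of 5239 to 7107 in swim mice, against 3871 to 6332 in control mice. Of all 11463 genes tested there, 1295 were called higher. The part of macrophages in the members' values was not tested.

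In kidney 4 of 8 members passed the filter and 2 were called lower, while 13.6% of all genes tested were called lower. Ppbp read 6.30, 6.20, 6.12 and 6.18 in swim kidney, against 6.81, 6.41, 6.99 and 6.96 in control kidney, a log2 fold change of -0.59 ± 0.11 (SE, limma adjusted p = 0.0053). Tubb1 differed by -0.14 ± 0.04 (adjusted p = 0.0386), and was lost in 6 of 8 fits without 1 array. With values as deposited neither was called, with Ppbp at -0.46 and Tubb1 at 0.0067, and neither was called with 1 fit of all 54 arrays. Pf4 was below the filter in kidney, with 5.21 to 5.54 in swim mice, against 5.73 to 6.15 in control mice, and with no filter Pf4, Ppbp and Gp9 were called lower and Tubb1 was not. Macrophage genes in the same kidney arrays were lower in 7 of 11 cases and higher in 1, with a sum of 2953 to 3166 in swim mice, against 3141 to 3403 in control mice, and their part in these differences was not tested. Of all 11610 genes tested in kidney, 1258 were called higher.

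In liver all 8 members passed the filter and 0 were called by limma, with 1, Tubb1, at an unadjusted p under 0.05 (-0.26 ± 0.11, limma adjusted p = 0.228), while 2.16% of all genes tested were called lower. Of all 11203 genes tested in liver, 2394 had an unadjusted p under 0.05 by limma. Clec1b read 8.04 to 8.59 in swim liver, against 8.18 to 8.75 in control liver, and had -0.18 ± 0.16 with a 95% interval of -0.55 to 0.20. Macrophage genes in the same liver arrays were lower in 9 of 15 cases. In brain 2 members passed the filter and 0 were called by limma, with 1, Treml1, at an unadjusted p under 0.05 (0.30 ± 0.10, limma adjusted p = 0.225), while 0.0516% of all genes tested were called lower. Of all 11621 genes tested in brain, 1898 had an unadjusted p under 0.05 by limma. In muscle 4 members passed the filter and 0 were called by limma, with 0 at an unadjusted p under 0.05, while 5.68% of all genes tested were called lower.

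In subcutaneous fat 6 members passed the filter and 0 were called by limma, and 0% of all genes tested were called, with 2489 genes and 2 members at an unadjusted p under 0.05. Those members were Tubb1, at -0.67 ± 0.17, and Itgb3, at -0.68 ± 0.21 (limma adjusted p = 0.203 and 0.205). For both the groups did not overlap, but the share of all genes with that pattern was not counted in this tissue. Pf4 went the other way, at 0.84 ± 0.44 (adjusted p = 0.275). Without control replicate 17, the control array of low Cd79a, 4 members passed, with Pf4 higher at 1.23 and Itga2b, Itgb3 and Tubb1 lower, in a fit that called 34.5% of all genes tested. Without swim replicate 22, the array of high Umod, 0 passed in the same limma fit, and Pf4 had 1.03.

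**Figure D5:**
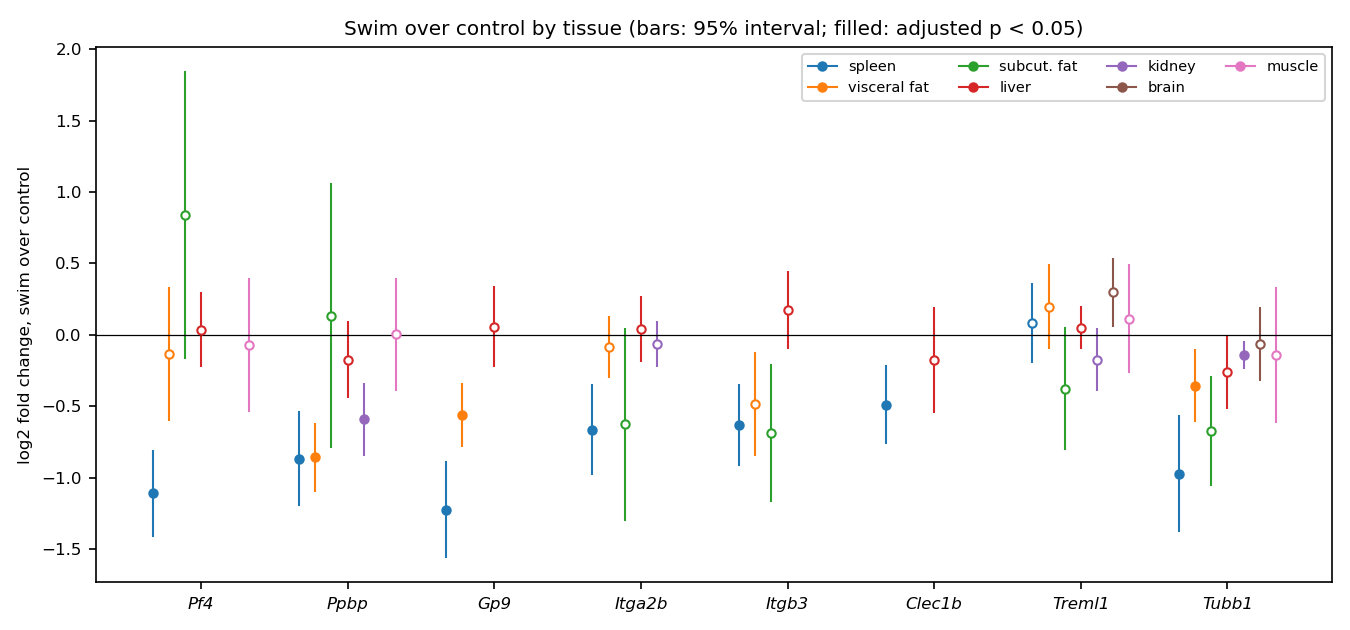
Log2 fold change of swim over control for each platelet gene in each tissue where it passed the filter, with 95% intervals of the limma fit as bars and filled points for adjusted p under 0.05. The 7 filled spleen points lie between -1.22 and -0.49, and the filled points elsewhere are Ppbp, Gp9 and Tubb1 in visceral fat and Ppbp and Tubb1 in kidney.

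Whether the spleen change differed from that of the other tissues was tested as the spleen effect minus the mean effect of the other 6 tissues, in 1 limma fit of all 54 arrays normalized together. Of 7 members past the filter, 4 were called lower, while 1.78% of all 11684 genes tested were called lower. Gp9 had -1.40 in spleen and -0.18 on average elsewhere, a difference of -1.23 ± 0.16 (SE, limma adjusted p = 2.66e-06). Pf4 had -1.28 in spleen and -0.016 elsewhere, a difference of -1.26 ± 0.28 (adjusted p = 0.00842). Tubb1 differed by -0.62 ± 0.16 and Itgb3 by -0.55 ± 0.16 (adjusted p = 0.0278 and 0.0439). The filter in this fit used the mean over all arrays. Within single tissues, Gp9 was below the filter in subcutaneous fat, kidney, brain and muscle. Itgb3 was below it in kidney, brain and muscle, and Pf4 in kidney and brain. Near background a gene has little room to fall, so for these genes the test cannot show a change particular to spleen. Tubb1 passed the filter in each tissue, but its control means outside spleen were 6.24 to 7.24, against 11.33 in spleen. It too had less room to fall there, and the same limit may hold for it.

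The difference did not pass for Itga2b, at -0.58 ± 0.18 (limma adjusted p = 0.071), or for Ppbp, at -0.48 ± 0.24 (adjusted p = 0.315), whose 95% interval ran from -0.97 to 0.014. Ppbp had -0.78 in spleen and -0.30 on average elsewhere in this fit. Treml1 differed by 0.07 ± 0.15 (adjusted p = 0.847), and Clec1b was below the filter. With the subcutaneous fat arrays left out, the same 4 of 6 measured members were called lower, with 6.82% of all genes tested called lower, and values were -1.09 for Pf4, -1.20 for Gp9, -0.70 for Tubb1 and -0.66 for Itgb3. With values as deposited or normalized within each tissue, Itgb3 was not called and the other 3 were. Pf4 and Gp9 were called in each of the 8 fits that left out 1 spleen array, and Tubb1 and Itgb3 were lost in 5 and 7 of them.

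The genes most like the members in level were looked up on 2 scales, as a description. Over the 14 means of tissue and treatment, the highest Pearson correlations with the mean of the members were those of Fndc7 (0.97), Dclre1b, Cdkn3, Cdca3, H4c8, Cdca8, Cpb1 and Cdc6 (0.96). These points are mostly a contrast of spleen with other tissues, and 1 of the 8 was also among the 8 highest by Spearman correlation. Their own log2 fold changes in spleen ran from -0.70 for Cdca8 (limma adjusted p = 0.0615) to -0.056 for Dclre1b (adjusted p = 0.644). Over the 8 spleen arrays with group means subtracted, the 8 highest were F2rl2 (0.97), Gnaz (0.97), Pde10a (0.97), Thbs1 (0.96), P2rx1 (0.96), U2af1 (0.94), Rab27b (0.93) and Clip2 (0.92). Of these 8, F2rl2, Gnaz, Thbs1, P2rx1 and Rab27b are in the platelet lists, and 2 of the 8 were also among the 8 highest by Spearman correlation. In spleen F2rl2, Thbs1, Rab27b and Gnaz were at -1.14, -0.97, -0.72 and -0.64, while P2rx1, an ATP-gated channel of platelets, had -0.35 and did not pass (adjusted p = 0.101). Pde10a, U2af1 and Clip2 did not pass either, at -0.13, 0.018 and 0.019.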

How the data were processed

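Gene expression was measured on Affymetrix arrays in 54 samples of 7 tissues. The deposited values are linear intensity values of 25917 probe sets. The tools PLIER and limma are named per the submitters' processing notes, without versions, and the sources used here give no settings. The platform annotation gave 1 symbol to 21086 probe sets, several to 1867 and none to 2964, and only the first kind was used. Values were quantile normalized within each tissue as log2(signal + 16), the 40% of probe sets with the lowest mean were dropped, and a gene was read from its brightest remaining probe set. Swim was compared with control in each tissue with limma 3.58.1 in R 4.3.3 (lmFit, eBayes, two-sided, Benjamini-Hochberg over all genes, threshold 0.05). A further fit of 14 group means compared spleen with the other tissues. The precision is limited by the 3 or 4 arrays of a group, and no 2 arrays held identical values. No batch is given in the labels, and none was modelled.

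The members and the gene lists were chosen with earlier results of these data known. Named genes are all members, up to 4 genes of smallest p in spleen from each list, the 8 most like the members on each of 2 scales, and the markers set for checking tissues (such as Cd79a, Ms4a1, Alb, Umod and Ckm). Others are said to be named after their values were seen. Kit stands in 2 lists. Statmod 1.5.0 served the robust fit and matplotlib 3.10.9 the plots. The test was tested on simulated data. Alternatives covered scaling, pseudocount, filter, array weights, fit and leaving out arrays. Promoters are from RefSeq, GRCm38.p6.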

Additional observations from a re-analysis of the deposited data

Results flagged for a closer look

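Of 66 groups of 4 arrays, 5 held a member's array that stood apart from the other 3 by Dixon's test, where chance gives about 1 in 20. In control spleen, replicate 26 was low for Gp9, at 9.46, and for Tubb1, at 10.82, and it is the spleen array with the highest Alb. Without it the log2 fold change of swim over control was larger in size for 7 members, and 7 were called lower, as were 452 of all 11335 genes tested. In swim subcutaneous fat, replicate 21 was high for Ppbp, at 7.09, and replicate 23, the array with high Ckm, was high for Tubb1, at 6.93. In swim kidney, replicate 15 was high for Tubb1, at 6.50. The spleen effect differed from the mean effect of the other tissues by the limma test of that difference for Pf4 (-1.26), Gp9 (-1.23), Tubb1 (-0.62) and Itgb3 (-0.55). Pf4, Gp9 and Itgb3 were below the filter on low signal in some of those other tissues, where they had little room to fall. Tubb1 was above the filter, but with control means of 6.24 to 7.24 there, against 11.33 in spleen, it too had less room to fall.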

How the results depend on the processing

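In spleen 7 members were lower under each scaling, pseudocount and robust setting tried, where 765 to 5061 of all genes tested were called lower. With no filter and with array weights 6 were lower (Clec1b lost), and 1 fit of all 54 arrays gave 6 of 7. In these 3 settings 600 of 18759, 777 of 11356 and 285 of 11706 genes tested were called lower. Leaving out 1 spleen array gave 4 to 7 members and 571 to 2181 genes, against 7 and 1591. Leaving out the 4 arrays of high Alb gave 0 members and 0 genes by limma, with 1778 genes at an unadjusted p under 0.05 and 2 arrays a group. Genes past the threshold numbered 5127 with values as deposited and 441 with 1 fit of all arrays. Members called in visceral fat numbered 1 with values as deposited, where 2.86% of all genes were called lower. They numbered 4 with arrays centred on their medians, where 39.4% of all genes were called lower. Without 1 array they numbered 2 to 3, with 6.79% to 10.4% of all genes called lower. In kidney they numbered 0 with values as deposited and with 1 fit of all arrays, where 0.121% and 2.03% of all genes were called lower. They numbered 1 with arrays centred on their medians (17.7% of all genes lower) and 3 with no filter (7.22% lower). Without 1 kidney array they numbered 1 to 2, with 10.4% to 12.5% of all genes called lower. In subcutaneous fat they numbered 5 (4 lower, 1 higher) with 1 fit of all arrays, which called 55.7% of all genes, and 0 to 4 without 1 array, the 4 (3 lower, 1 higher) without control replicate 17, where 34.5% of all genes were called. Members whose spleen effect differed from other tissues numbered 3 with values as deposited and with normalization within each tissue. In these settings 1.02% and 1.39% of all genes were called lower. Without 1 spleen array such members numbered 2 to 4, with 0.436% to 2.91% of all genes called lower. Treml1 changed sign in spleen to -0.19 with values as deposited, -0.0020 with arrays centred on medians and -0.031 to 0.15 without 1 array, the lowest without control replicate 28. Its spleen difference from other tissues became -0.22 with values as deposited, -0.0074 without subcutaneous fat and -0.044 to 0.15 without 1 array, again lowest without control replicate 28. The causes were not tested. No paired analysis was possible because no 2 groups share replicate numbers. Members near the filter on low signal, such as Gp9 outside spleen and Clec1b outside spleen and liver, have differences limited by signal over background.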
